A study of Mus musculus with 60 samples.

Results

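Treatment with TSA was compared with treatment with DMSO after 24 and 36 h in mouse erythroleukemia cells. The comparison used 16 of the 60 arrays of the series, 4 for each chemical at each time and 8 a side, taken by their labelled chemical and time. The cells were HD-MEL, the line T-3-Cl-2-0.fl, a highly inducible line grown in RPMI1640 with fetal calf serum. The DMSO groups received 1.5% DMSO (dimethyl sulfoxide) for 24 or 36 h, and the TSA groups 30 nM TSA (trichostatin A). One DMSO label prints the dose without its decimal point, while the titles give 1.5%. On every array RNA after treatment was hybridised against RNA of the same line before treatment, so each value is a log2 ratio of after over before. No untreated culture of the same age was labelled. The 4 arrays of a group are technical: replicates 1 and 2 carried the treated RNA in Cy5, and replicates 3 and 4 in Cy3. HMBA (hexamethylene bisacetamide), another inducer, was followed at the same times and is used below for reference.

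Murine erythroleukemia cells are virus-transformed red cell precursors arrested before maturation. Polar compounds such as DMSO and HMBA release the arrest in culture, and the cells then accumulate hemoglobin and stop dividing. TSA inhibits zinc-dependent histone deacetylases, so acetyl groups stay on histone tails and on other proteins, and the transcription of many genes shifts in both directions.

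The arrays carry cDNA clones in 2 libraries, H3 and H4, and an identifier gives the plate and well of a clone. None of the identifiers is paired with a gene here, so no gene is named, and the labelled cell type could not be checked against erythroid markers. A run of high-numbered H3 plates lay on another slide on the DMSO arrays than on the TSA arrays. Differences for these moved plates therefore cross slides and are given apart.

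The 16 arrays listed between 18287 and 20980 clones each, with a median intensity of 401 to 989 before and 377 to 1156 after treatment. At most 4 clones per array exceeded an intensity of 65000. Replicate 3 of TSA stood apart at both times: the median absolute deviation of its log2 ratios was 0.603 to 0.673, against 0.317 to 0.485 on the other 14 arrays. Arrays of a group with the same dye orientation correlated across clones at r = 0.181 to 0.630, and those of opposite orientation at r = -0.07 to 0.288. Each group was 1 pair of RNA extracts, so its 4 arrays entered the tests as 1 value, the mean of both dye orientations. The p-values thus cover the spread of the groups around a model, and not that between repeated cultures.

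After 24 and 36 h, clones stood both higher and lower with TSA than with DMSO, and the largest differences were on the higher side. Which direction held more clones depended on the arrays used. Of 14816 clones tested, 414 (2.79%) differed at a Benjamini-Hochberg adjusted p below 0.05 in the limma fit. Of these, 243 (1.64%) were higher with TSA, and 171 (1.15%) were lower. The median difference was 1.40 log2 units among the higher clones and -0.97 among the lower. The fitted difference reached 4.14 log2 units upward and -2.14 downward, around a median of 0.01 over all clones tested. At least 1 log2 unit separated the chemicals for 187 of the higher and 73 of the lower clones. At least 2 units were reached by 74 higher clones and 1 lower clone, and at least 3 by 28 higher clones and 0 lower ones. For a typical clone the standard error was 0.177 log2 units and the 95% interval reached 0.409 units to either side. The scatter of TSA against DMSO values shows the higher clones mainly above the line of no change and to the left of 0.

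**Figure D1:**
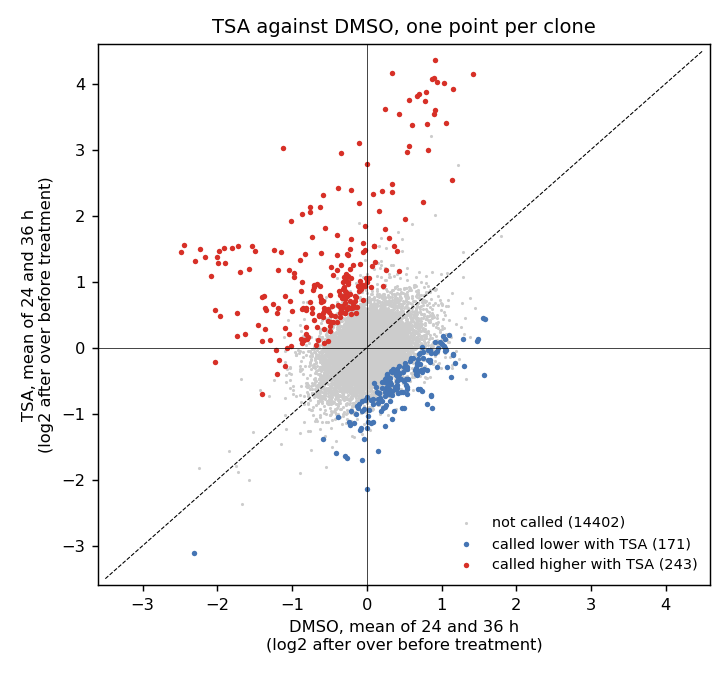
Each point is 1 of 14816 clones, with its log2 after over before value under DMSO on the x axis and under TSA on the y axis, both as the mean of 24 and 36 h. Red points are the 243 clones called higher with TSA, blue points the 171 called lower and grey points those not called, and the dashed line marks equal values.

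The number of calls depended on the replicates used. With 1 replicate number left out in all conditions it was 244 without replicate 1 (173 higher, 71 lower), 233 without replicate 2 (166 and 67) and 164 without replicate 3 (125 and 39). Without replicate 4 it was 546, and the lower clones were then the more numerous, 291 against 255 higher. The Cy5 arrays alone gave 134 calls, 119 of them higher, and the Cy3 arrays alone gave 321, 170 of them higher. The higher clones came from 138 plates, at most 10 from any 1 plate, and the lower clones from 110 plates, at most 6 from 1. Within plates, up to 5 calls of 1 direction shared a row, and 12 pairs of higher and 6 pairs of lower clones sat in adjacent wells. How many such pairs other sets of clones of these sizes would give was not computed. Plate rows held 9.90% of the variance of the difference across clones, and plates 3.93%. Removing each row's median from each array raised the calls to 669, with 339 higher and 330 lower.

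Among the 12334 clones that shared a slide in both treatments, 327 (2.65%) were called, 179 higher and 148 lower. Their median differences were 1.42 and -0.96 log2 units. Of the 2482 clones of the moved plates, 87 (3.51%) were called, 64 higher and 23 lower, with medians of 1.37 and -0.97. The remaining H3 plates, with 7194 clones tested, held 141 of the higher clones and 74 of the lower. The H4 plates, with 5140 tested, held 38 and 74. The slide and the treatment cannot be told apart for the moved plates.

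By their medians, the higher clones lay on opposite sides of the level before treatment in the 2 chemicals. At 24 and 36 h their median was 0.96 and 0.91 log2 units above before treatment with TSA, and -0.50 and -0.38 with DMSO. TSA lay above and DMSO below the level before treatment for 191 of the 243. The lower clones showed the mirror image, with TSA medians of -0.57 and -0.45 and DMSO medians of 0.46 and 0.37, and 132 of 171 lay below with TSA and above with DMSO. TSA was the farther of the chemicals from before treatment for 164 higher and 100 lower clones. HMBA medians were -0.15 and 0.03 for the higher clones and 0.24 at both times for the lower. HMBA lay nearer to DMSO than to TSA for 171 of 243 higher and 142 of 171 lower clones. These levels come from the arrays that gave the calls and are a description. The shares of all tested clones in these positions were not computed, so the counts are not shown to be particular to the called clones.

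**Figure D2:**
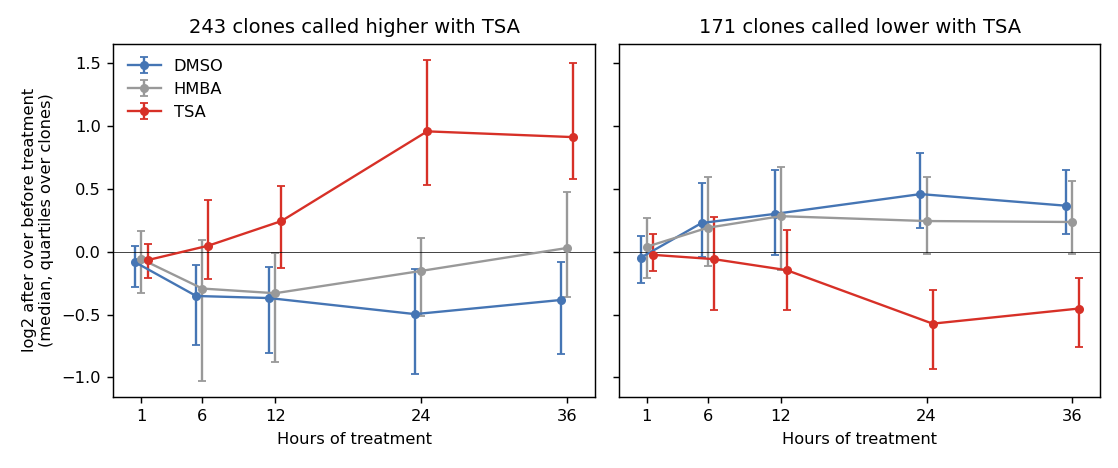
Median log2 after over before treatment against hours of treatment, with quartiles over clones as bars, for the 243 clones called higher with TSA (left) and the 171 called lower (right). TSA and DMSO lie close together at 1 h and are widest apart at 24 h, where the medians are 0.96 and -0.50 on the left, and HMBA runs nearer to DMSO.

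Tested against before treatment, TSA at 24 and 36 h differed for 1535 clones (10.4%), 668 higher (4.51%) and 867 lower (5.85%). DMSO differed for 811 (5.47%), 363 higher (2.45%) and 448 lower (3.02%). Over all tested clones the values reached from -3.11 to 4.35 log2 units with TSA and from -2.49 to 1.80 with DMSO. These counts share their arrays with the difference between the chemicals, and leave out the spread of the RNA before treatment. The test of that difference leaves this spread out too, where the times of a chemical share that RNA. They moved with the data used: without the 24 h groups 416 TSA and 35 DMSO calls were left, and without the 36 h groups 498 and 538.

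The 243 higher clones fell mainly into 3 classes by these tests. In the largest, 137 clones were called higher with TSA and not called with DMSO, at medians of 1.06 and -0.21, and 49 of them came from the moved plates. A further 53 clones, 6 of them from these plates, were called higher with TSA and lower with DMSO, at medians of 1.13 and -1.01. This class had the widest difference of the 3, 2.21, which its definition favours. In 44 clones only the fall with DMSO was called, at -1.01 against 0.23 with TSA. The other 9 comprised 6 called higher with both chemicals, 1 called lower with both and 2 called with neither. HMBA medians in the 3 classes were 0.14, -0.23 and -0.48.

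Among the 171 lower clones, 90 were called lower with TSA and not called with DMSO, at medians of -0.77 and 0.21. In 59 clones the rise with DMSO was called and TSA was not, at 0.84 against -0.16, and HMBA stood at 0.62 there. Both changes were called for 9 clones, with medians of -0.51 and 0.56. The other 13 comprised 2 called lower with both chemicals and 11 called with neither. A class in which 1 chemical missed the threshold does not show that this chemical had no effect.

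Calls occurred at all intensities. In 5 equal bins of intensity before treatment, from dimmest to brightest, 1.18%, 1.62%, 2.36%, 1.69% and 1.35% of clones were called higher, and 1.28%, 1.28%, 1.25%, 1.18% and 0.776% lower. The median standard error fell from 0.233 log2 units in the dimmest bin to 0.148 in the brightest. The median intensity before treatment was 1053 for the higher clones and 843 for the lower, against 1020 for all clones tested.

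The difference lay mainly in the treated channel for the higher clones. Here and below, intensities compared between matched arrays were log2 values centred within each array. On matched arrays, and for clones on the same slide, the treated intensity was a median of 1.57 log2 units higher with TSA than with DMSO for the 179 higher clones, while the intensity before treatment differed by 0.08. For the 148 lower clones these values were -0.71 and 0.12, and for all 12334 clones 0.11 and 0.10. The intensity before treatment of a single clone was less stable than these medians: the quartiles over all clones were -0.64 and 0.78. It differed more between the arrays than the treated intensity did for 39 of the 179 higher and 58 of the 148 lower clones, against 5410 of all 12334.

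The 4 clones named below are the most extreme called clones outside the moved plates with 1 sign in all 8 matched array pairs. Separation of their arrays is thus partly built into the choice. Clone H3114F12 had the largest fitted difference. With DMSO its log2 ratios in replicates 1 to 4 were -0.40, -3.30, -1.62 and -2.08 at 24 h and -0.02, 0.41, -1.02 and -0.93 at 36 h. With TSA they were 2.93, 2.55, 2.46 and 2.41 at 24 h and 3.17, 2.85, 3.83 and 3.95 at 36 h. All 8 TSA arrays were above all 8 DMSO arrays, and the DMSO arrays at 24 h were the most scattered. The difference was 4.14 log2 units (SE 0.42, 95% interval 3.16 to 5.12, limma adjusted p = 0.00324), or 17.6-fold, and it was 4.44 at 24 h and 3.84 at 36 h. The earlier differences were 0.10, 0.03 and 0.61 after 1, 6 and 12 h. TSA was above before treatment by 3.02 (limma adjusted p = 0.00148), while the DMSO value of -1.12 did not pass the test (limma adjusted p = 0.0773). Between matched arrays the treated intensity of this clone differed by 2.73 log2 units and that before treatment by -1.04.

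Clone H3038C06 separated the chemicals with far less scatter. With DMSO its log2 ratios were -2.99, -2.41, -2.80 and -2.64 at 24 h and -2.16, -2.03, -2.30 and -2.24 at 36 h. With TSA they were 1.43, 1.62, 1.69 and 1.61 at 24 h and 1.47, 1.43, 1.59 and 1.58 at 36 h. Every DMSO array was at least 2 units below before treatment and every TSA array was above it. The difference was 4.00 log2 units (SE 0.33, 95% interval 3.24 to 4.76, limma adjusted p = 0.00148), or 16.0-fold. Over the 5 times in order it was 0.28, 1.91, 3.06, 4.30 and 3.70. With DMSO the clone was at -2.03 after 6 h, -2.63 after 12 h, -2.71 after 24 h and -2.18 after 36 h, whereas with HMBA it went from -2.12 at 6 h through -1.22 and -0.44 to 0.09 at 36 h. With TSA it stood at -0.12 after 6 h and at 0.43 after 12 h. Between matched arrays the treated intensity differed by 2.60 log2 units and that before treatment by -1.35.

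Clone H3075A11 had the lowest fitted difference and was below before treatment with TSA and near it with DMSO. With DMSO its log2 ratios were 0.11, 0.17, -0.37 and -0.12 at 24 h and -0.01, 0.34, -0.13 and -0.01 at 36 h. With TSA they were -1.64, -1.80, -2.24 and -2.67 at 24 h and -1.88, -1.97, -2.67 and -2.26 at 36 h. The groups did not overlap, and the DMSO arrays lay on both sides of 0. The difference was -2.14 log2 units (SE 0.14, 95% interval -2.46 to -1.82, limma adjusted p = 0.00091), which is 4.41-fold lower with TSA. TSA was below before treatment by the same amount, -2.14 (limma adjusted p = 6.9e-05), and DMSO was at 0.00 (limma adjusted p = 0.996). The fall with TSA stood at -1.99 after 6 h and -1.74 after 12 h. Treated intensities with TSA in Cy5 were low at 24 and 36 h, 77 to 129. Without the normexp correction described below, the difference between the chemicals was -1.70 log2 units. In this clone the centred treated intensity differed by -0.39 log2 units between matched arrays and that before treatment by 1.39. By these centred values its difference lay mostly in the channel before treatment. Uncentred, the treated intensity was 77 to 429 with TSA and 266 to 559 with DMSO. That before treatment was 735 to 1064 with TSA and 254 to 614 with DMSO. What part the channel before treatment has in the result was not tested.

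Clone H3006C01 was the second lowest by the same rule, and differed mainly at 24 h. With DMSO its log2 ratios were 0.59, 1.05, 1.55 and 1.02 at 24 h and 0.48, 0.12, 0.74 and 0.91 at 36 h. With TSA they were -1.78, -2.09, 0.16 and -1.76 at 24 h and -0.48, -0.37, -0.35 and -0.17 at 36 h. Replicate 3 of TSA at 24 h reached the range of DMSO at 36 h, while the other TSA arrays lay below all DMSO arrays. The difference was -1.66 log2 units (SE 0.32, 95% interval -2.40 to -0.93, limma adjusted p = 0.0383), or 3.16-fold lower, from -2.42 at 24 h and -0.90 at 36 h. Neither chemical passed the test against before treatment, with TSA at -0.86 (limma adjusted p = 0.0507) and DMSO at 0.81 (limma adjusted p = 0.0843). Without replicate 3 the difference was -1.83 and no longer passed (limma adjusted p = 0.114), and without replicate 1 it was -1.70 (limma adjusted p = 0.0802). At a single time each side is 1 pair of extracts, so no p-value is given for either time alone. Between matched arrays the treated intensity differed by -1.93 log2 units and that before treatment by -0.35. Uncentred treated intensities with TSA in Cy5 were low at 24 h, 93 and 45. Without the normexp correction the difference between the chemicals was -1.46 log2 units.

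**Figure D3:**
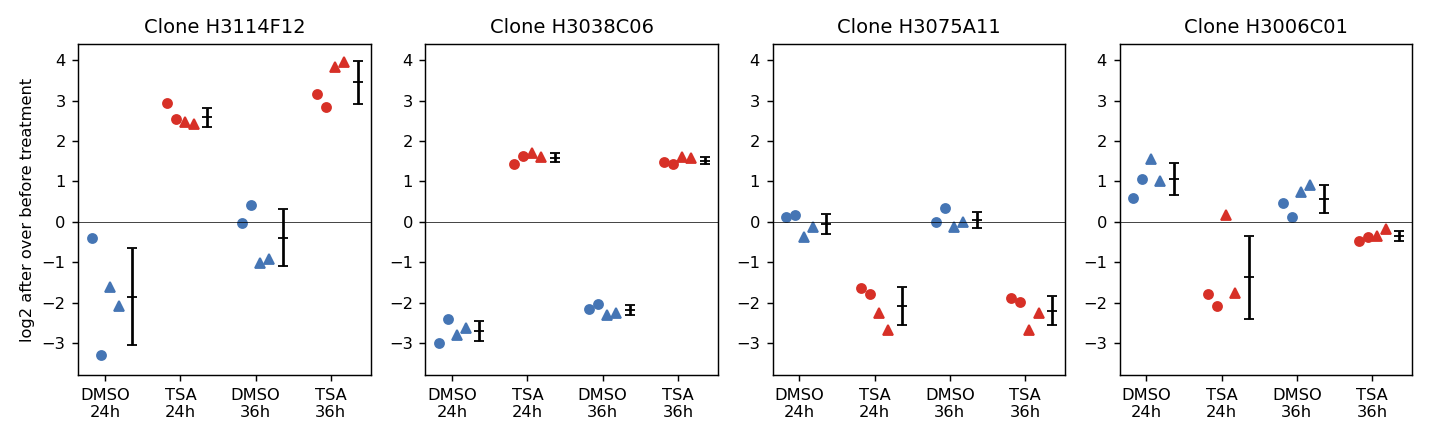
Log2 after over before treatment for the 4 clones in each of the 16 arrays, with DMSO in blue and TSA in red, circles for treated RNA in Cy5 and triangles for treated RNA in Cy3. Black bars are the mean and SD of the 4 technical arrays of a group, and the groups overlap in H3006C01, through 1 TSA array at 24 h.

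Differences in the direction of the calls were already present at 6 and 12 h for most called clones, at smaller medians. The times of a chemical may share the RNA before treatment, which could carry a sign across times, and this was not tested. For the higher clones the median difference over 1, 6, 12, 24 and 36 h was 0.05, 0.48, 0.68, 1.44 and 1.34 log2 units. For the lower clones it was 0.03, -0.31, -0.44, -1.05 and -0.87. At 6 h, 212 of the 243 higher clones already had a difference above 0 and 128 of the 171 lower clones one below 0. Among all 14816 clones, 7107 were above and 7709 below 0 at 6 h. At 12 h 215 higher and 145 lower clones had these signs, against 7095 above and 7721 below in all. At 24 h 243 of 243 higher clones were above 0, against 7805 of all 14816. That sign is largely set by the call, which used the mean of 24 and 36 h. The medians over all tested clones were 0.03 at 24 h and -0.005 at 36 h. The widening since 6 and 12 h was tested as a difference of differences, and limma called 0 clones at an adjusted p below 0.05, with 1631 of 14816 below an unadjusted p of 0.05. Among the 4 named clones this change was 3.82 log2 units for H3114F12 (limma adjusted p = 0.124) and 1.52 for H3038C06 (limma adjusted p = 0.355). It was -0.89 for H3075A11 (limma adjusted p = 0.250) and -1.77 for H3006C01 (limma adjusted p = 0.296). Among the alternatives that kept both late times, those with calls gave 6 to 33 of them, mostly for an upward change of the difference.

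The 24 h and 36 h differences can also be set side by side. Across all tested clones they correlated at r = 0.481, over conditions that share neither arrays nor treated RNA, although both may share the RNA before treatment. The difference was larger at 36 h than at 24 h for 113 of 243 higher and 49 of 171 lower clones in absolute size, with median changes from 24 to 36 h of -0.02 and 0.20 log2 units. The plot of 24 h against 36 h differences shows the higher clones along the line of equal values. Matched arrays scattered more at 24 h: the median SD of a clone's difference over the 4 pairs was 0.471 log2 units, against 0.386 at 36 h.

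**Figure D4:**
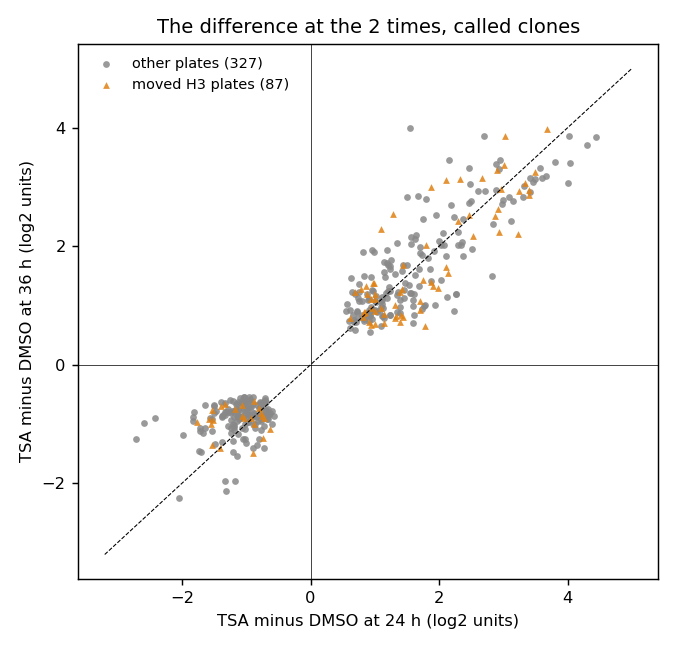
TSA minus DMSO difference in log2 units at 24 h (x axis) and at 36 h (y axis) for the 414 called clones, with the 87 clones of the moved plates as orange triangles and the other 327 as grey points. The dashed line marks equal differences. No called clone changes sign between the times, which the calls favour, as they were made on the mean of both times.

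With the other late time left out of the fit, limma called 205 clones at 24 h alone (134 higher, 71 lower) and 123 at 36 h alone (118 higher, 5 lower). Each side is then 1 pair of extracts, assumed to vary like the other conditions. As a count without a model, clones were taken whose mean difference was at least 1 log2 unit with 1 sign in all matched array pairs. At 24 h, 531 of 13648 clones listed on all 8 arrays (3.89%) passed, 243 higher (1.78%) and 288 lower (2.11%) with TSA, 116 of them from the moved plates. At 36 h, 296 of 14004 (2.11%) passed, 223 higher (1.59%) and 73 lower (0.521%), 68 of them from these plates. For comparison, 185 clones at 24 h and 107 at 36 h passed this size with a sign that followed the treated dye. The cause of such reversals was not tested. Of the higher clones, 128 passed at both times, 52.7% of those at 24 h and 57.4% of those at 36 h. Of the lower clones, 26 did, 9.03% of those at 24 h and 35.6% of those at 36 h, and 0 clones passed in opposite directions. Over all 8 pairs of both times 254 of 13039 clones (1.95%) passed, 169 higher (1.3%) and 85 lower (0.652%). At the same size 14 clones followed the dye, and 202 of the 254 were also called by limma. Both rules use the same differences from the same arrays, so this overlap is partly built in.

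The clones that held their call under every alternative were nearly all higher ones. Some alternatives called few lower clones at all, which limits how many could hold. The 24 and 36 h groups alone gave 11 lower against 96 higher, and Cy5 arrays alone 15 against 119. Of the 243 higher clones, 52 from 43 plates were called in each of 19 alternatives in which they were tested, and of the 171 lower clones, 1 was, H3075A11. Those 52 had a median difference of 2.87 log2 units (1.50 to 4.14), with TSA at 1.47, DMSO at -1.17 and HMBA at -0.14, and 33 of them were called higher with TSA and lower with DMSO. Of these 52, 6 came from the moved plates. Under the 5 normalizations alone, 211 higher and 107 lower clones kept their call, and with each replicate left out in turn 110 and 13 did.

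One time course recurred among the called clones. Over the 15 conditions of the series, 15 other called clones from 12 plates, 0 of them from the moved plates, correlated with H3038C06 at r of at least 0.95, up to 0.995. Clones can come from 1 gene, and the points share the RNA before treatment, so the number of genes behind them is unknown. All 16 were called higher with TSA and lower with DMSO, and all 16 held their call in each of the 19 alternatives. Only the 413 other called clones were searched, over conditions that include those behind the calls. The shared class and calls thus follow in part from the selection. With DMSO their median over the 5 times in order was -0.50, -1.73, -2.20, -2.07 and -1.85. With HMBA the fall was as deep at 6 h, -1.80, and was followed by -1.07, -0.52 and 0.05. With TSA the medians from 6 to 36 h were -0.38, 0.14, 1.43 and 1.34. The differences between TSA and DMSO over 24 and 36 h ranged from 2.21 to 4.00 log2 units in these 16 clones. H3114F12 had 1 other called clone this like it, and H3075A11 and H3006C01 had 0.

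A second time course was picked after its values were seen, as the 20 higher clones at 2 log2 units or more after 36 h of HMBA. With TSA their medians from 6 to 36 h were 0.46, 0.70, 3.25 and 4.36, and at 36 h they ranged from 3.53 to 5.00. With DMSO it was 0.25 at 24 h and 1.36 at 36 h, while with HMBA it was -1.54 at 6 h and -0.27 at 24 h, against 2.65 at 36 h. All 20 were higher at 36 h than at 24 h with TSA and with DMSO. They stood high with all 3 inducers at 36 h, in the order TSA, HMBA and DMSO by median, and the difference between TSA and DMSO was 2.93 at 24 h and 2.98 at 36 h. However, 17 of the 20 came from the moved plates, over 9 plates in all, so most of the TSA and DMSO values come from different slides, and 3 of the 20 held their call in every alternative. In 19 of the 20 the rise with TSA was called and DMSO was not.

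**Figure D5:**
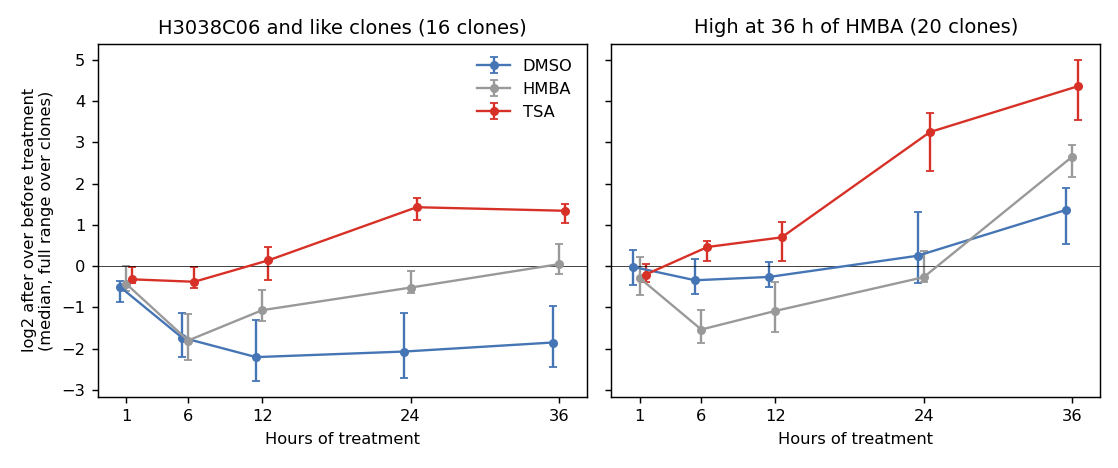
Median log2 after over before treatment against hours of treatment, with the full range over clones as bars, for H3038C06 and the 15 clones most like it (left) and for the 20 higher clones at 2 log2 units or more after 36 h of HMBA (right). On the left DMSO stays near -2 from 6 h on while HMBA returns to 0.05, and on the right all 3 chemicals are above before treatment at 36 h, TSA the most at 4.36.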

How the data were processed

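The authors deposited 2 spot intensities per clone and slide on a linear scale, before and after treatment per the file headers, and 1 after over before ratio per clone and array. Scanning, spot flags and the authors' normalization are not given in the sources used here. The deposited log2 ratios correlated with those computed here at r = 0.948 to 0.992 on the 16 arrays, which settled the direction, and served as an alternative.

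In limma 3.58.1 (R 4.3.3), normexp with an offset of 50 and then a loess curve of span 0.3 were applied slide by slide. As no background measure is held, clones were filtered on listing in place of brightness: at least 3 of 4 arrays in each of 12 conditions, which kept 14816 of 22450 clones. Columns not used numbered 0.

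The 12 conditions of DMSO, HMBA and TSA at 6, 12, 24 and 36 h were fitted by chemical and stage (6 and 12 h, 24 and 36 h) with a term for time within stage, leaving 4 residual degrees of freedom, or 7.86 with limma's prior. The 1 h groups were left out of the fit. The script was tested on data simulated with independent noise at the fitted variances. Those data hold no shared RNA before treatment and no dye or plate effects, so they cannot show that the calls here hold.

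No identifier matched the gene table of assembly GRCm38.p6 (0 matches), so the gene lists could not be tested. Clones were named as the 2 highest and 2 lowest called outside the moved H3 plates with 1 sign in all matched pairs. The members, lists and rule were chosen with earlier results of these data known.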

Additional observations from a re-analysis of the deposited data

Results flagged for a closer look

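For each of the 4 named clones, the 4 arrays of each TSA and DMSO group at 24 and 36 h were searched for an array far from the others by Dixon's test, 16 groups in all. Chance marks about 1 group in 20. In clone H3006C01, replicate 3 of TSA at 24 h was at 0.158 log2 units, while the other 3 arrays lay between -2.09 and -1.76. This is the replicate whose log2 ratios spread more widely at both times, and its part in this value was not tested.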

How the results depend on the processing

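H3114F12, H3038C06 and H3075A11 kept their direction and call in 19 of 19 alternatives. H3006C01 kept its direction in 19 and lost its call in 6. The 414 calls between TSA and DMSO became 669 with plate-row medians removed, 164 to 546 with a replicate left out (255 higher and 291 lower without replicate 4), 134 from Cy5 arrays alone, 206 without HMBA, 205 without 36 h, 123 without 24 h (118 higher) and 107 with 24 and 36 h alone (96 higher). The change since 6 and 12 h, with 0 calls, had 6 from the deposited ratios, 33 without normexp, 28 with plate-row medians removed, 21 without the dimmest clones and 2 without 24 h. The 1535 TSA calls against before treatment became 718 to 2295 with a replicate left out, 732 and 2468 from Cy5 or Cy3 arrays, 416 without 24 h, 498 without 36 h and 850 with 24 and 36 h alone. The 811 DMSO calls became 1274 without normexp, 1356 with scaled arrays, 358 to 551 with a replicate left out, 227 from Cy5 arrays, 35 without 24 h, 538 without 36 h and 147 with 24 and 36 h alone. The size rule on both times, with 254 clones, gave 509 and 612 from Cy5 or Cy3 arrays, 633 at 1.5-fold and 66 at 4-fold, and 289 to 330 with a replicate left out. At 24 h alone (531) it gave 339 without normexp, 1333, 1500, 1585 and 82 under the Cy5, Cy3 and fold settings, and 693 to 798 with a replicate left out. At 36 h alone (296) it gave 461 with scaled arrays, 594, 907, 1040, 85, 374 to 501 likewise, and 472 on the mean difference alone. Without 24 h or without 36 h, the spread in the limma fits came from the 6 and 12 h groups alone. Leaving out arrays leaves fewer pairs that must share a sign. Other causes were not tested.

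Deviations of same-numbered TSA and DMSO arrays correlated at r = 0.151 to 0.271 at 24 h and 0.024 to 0.146 at 36 h, and those of other-numbered arrays of the same dye at 0.115 to 0.262. Not every pair passed 0.1, so the fit had no block for the number, which served to match arrays of the same treated dye in the size rule and the channel values. A replicate block with the condition as a random block gave 1573 calls, 741 higher and 832 lower, with a consensus correlation of -0.02, and treats 48 technical arrays as values.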
